A study of Homo sapiens with 16 samples.

Results

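The cytosolic ribosomal protein genes were followed in Molm14 cells treated with inhibitors of DOT1L and EZH2. Members were the rows of the expression table that map to protein-coding genes named RPSA, RPLP0, RPLP1, RPLP2, or RPL or RPS with a number and, where present, a closing A, X, Y or L. The rule used symbols only, and it found 81 genes among 22445 rows, 49 of the large subunit (RPL and RPLP symbols) and 32 of the small subunit (RPS symbols and RPSA). All 81 passed the filter on low values and were tested.

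Molm14 is a human acute myeloid leukaemia line with a rearranged KMT2A gene, and all groups carry that rearrangement. The libraries fall into 4 groups of 4. DMSO is the vehicle control. The iDOT1L cells received EPZ5676, which blocks DOT1L, at 0.16 uM. The iEZH2 cells received GSK126, which blocks EZH2, at 0.3 uM, and the Combo cells received both at these doses. According to the series' design text, exposure lasted 7 days. Medium and compound were renewed on day 4. The time given in the extraction protocol conflicts with the 7 days, so the length of exposure is not certain. All libraries come from this 1 cell line. Whether the replicates were separate cultures is not given in the labels, so the p-values below rest on the spread between libraries alone, which may be technical.

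Each cytosolic ribosome is built from a large subunit, which holds the site of peptide bond formation, and a small subunit, which reads the mRNA. Nearly every ribosomal protein is present as 1 copy per ribosome, and the cell makes the proteins in matched amounts from genes scattered over the genome. Most of these mRNAs begin with a cytosine followed by a run of pyrimidines, the terminal oligopyrimidine (TOP) tract, through which mTOR signalling and the protein LARP1 control their translation and stability. DOT1L methylates lysine 79 of histone H3 at transcribed genes and is a dependency of KMT2A-rearranged leukaemia, and EZH2 is the catalytic subunit of the repressive complex PRC2.

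The start windows of a few members are shown because the TOP tract is the sequence feature that most of these genes share. RefSeq promoter entries (GRCh38.p14) were found for 64 of the 81 members, 79%, so the shares below describe those 64 only. Each window runs from 5 bases before an annotated start to 20 bases from it, and the capitals mark the unbroken run of C and T that begins at the start base.
RPSA, chr3:39406715-39406739, plus strand: cctgtCTTTTCCgtgctacctgcag
RPL27A, chr11:8682787-8682811, plus strand: ccttcCTTTTTCgtctgggctgcca
RPS19, chr19:41860250-41860274, plus strand: tcgttCCCTTTCCCCTggctggcag
RPS3, chr11:75399513-75399537, plus strand: cacttCCTTTCCTTTCagcggagcg
RPLP0, chr12:120201092-120201116, minus strand: gaggcCCTTCTCTCgccaggcgtcc
RPL39, chrX:119791611-119791635, minus strand: agcttCCCTCCTCTTCCTTTCTCCg
RPS28, chr19:8321491-8321515, plus strand: acgtgactcctctccgccagaccgc
RPS4X, chrX:72277229-72277253, minus strand: gccccaatttctacgcgcaccggaa
RPS27L, chr15:63157458-63157482, minus strand: cgagcgcagatcgcttgcagcttgc
In the first 6 windows the start base is C and the run goes on, for 19 bases in RPL39, the longest run among the members. RPS28, RPS4X and RPS27L have no C or T at the annotated start base. In RPS28, however, a pyrimidine stretch begins at the very next base, and RPS4X has a shorter one slightly further in. A C at the start followed by at least 4 more C or T stood at an annotated start of 46 of the 64 members (28 of 39 large and 18 of 25 small), against 6.24% of 15842 genes with an entry. A C/T run of at least 8 bases within 10 bases of a start was found in 54 of the 64, and in 3168 of the 15842 genes. Other motifs were searched on both strands of the 300-base promoter windows. GGGCGG was in 38 of the 64 members (64.3% of all genes), CCGGAAG in 23 (16.5%), TATAAA in 6 (12.4%) and AAGATGGC in 6 (4.66%). These matches describe letters in a window and not binding.

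Ribosomal protein mRNAs made up a large share of every library. Values are normalised counts, which were recovered from the deposited log2 values and are comparable between libraries. Of the 81 members 75 had a mean of at least 10000 normalised counts over the 16 libraries, 49 were among the 100 genes of highest count, and 9 among the top 20. The genes lie on 21 chromosomes, with 12 on chromosome 19 and 8 on chromosome 3. The 6 members below 10000 were RPS26 (mean 3789), the RPS27 relative RPS27L (1386), RPS9 (567), and RPL39L (187), RPL3L (16.6) and RPL10L (3.59), which are relatives of RPL39, RPL3 and RPL10 known for expression in testis or muscle. The median over small subunit members was 29148. Whether the low counts of RPS26 and RPS9 come from low expression or from the placing of their reads was not tested.

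Divided by the length of a reference transcript, levels were similar in both subunits. The median was 44836 normalised counts per kilobase for large and 47021 for small subunit members. Among the 75 abundant members the level per kilobase ran from 15139 for RPS28 to 144447 for RPL4, a protein that lines the peptide exit tunnel. Next to RPL4 stood RPLP0, the base of the ribosomal stalk, at 143745. The reference was the protein-coding transcript of median length, which need not be the one that the cells mainly use. These levels depend on that choice, and the order of single genes, with RPS28 and RPL4 at its ends, is therefore uncertain.

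Reads of these genes can also be hard to place. Of all stretches of 31 bases in a member's reference transcript, a median of 46.2% also occurred in a transcript of another gene, mostly a processed pseudogene, and the share was above 20% for 64 members. It reached 96.0% for RPL7, 97.2% for RPS3A and 84.0% for RPSA, and their single-gene values are therefore uncertain. RPL17 and RPS10 share 72.1% and 75.9% with annotated read-through transcripts. The table held 416 ribosomal protein pseudogene rows, which took only 0.65% to 0.76% of the counts of members and pseudogenes together. The most abundant was RPL23AP42, with a mean of 10311, close to the 10949 of its parent RPL23A.

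All groups with inhibitor had a higher mean share of ribosomal protein mRNA than DMSO, and Combo the highest. Both subunits together took 11.5%, 10.5%, 11.4% and 11.3% of the normalised counts of DMSO replicates 1 to 4. In iDOT1L the shares were 12.9%, 11.3%, 12.3% and 13.0%, and in iEZH2 12.1%, 10.8%, 12.4% and 13.4%. In Combo they were 16.1%, 11.8%, 13.5% and 14.3%, so that each Combo library lay above each DMSO library, while iDOT1L and iEZH2 overlapped DMSO through their replicate 2. The group means were 11.2% ± 0.468 for DMSO, 12.4% ± 0.783 for iDOT1L, 12.2% ± 1.05 for iEZH2 and 13.9% ± 1.80 for Combo (SD, n = 4). In bulk RNA a change in the mix of cells and a change of RNA level per cell cannot be told apart.

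**Figure D1:**
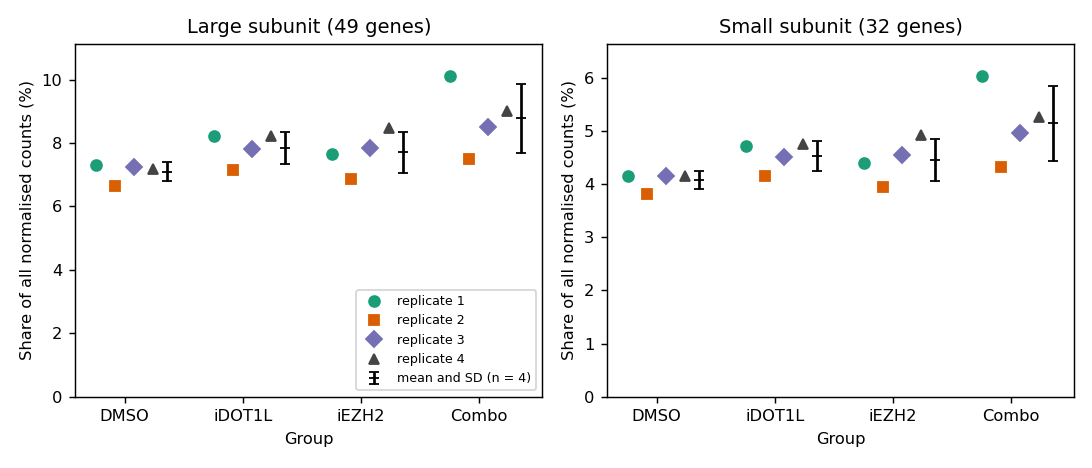
Share of all normalised counts (%) taken by large subunit genes (left) and small subunit genes (right) in each of the 16 libraries, with symbols for the replicate numbers and the mean with SD of each group (n = 4). Replicate 2 is the lowest library of every group, and Combo replicate 1 is the highest of all, at 10.1% for the large and 6.03% for the small subunit.

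The libraries of 1 group differed from each other in a regular way. Replicate 2 had the lowest share in each of the 4 groups. Among the 75 abundant members replicate 2 was the lowest library for 70 in DMSO, 72 in iDOT1L, 74 in iEZH2 and 75 in Combo. Combo replicate 1 was the highest of the 16 libraries for all 75. The labels do not say what the replicate number stands for, and its part in the results was not tested beyond the fits given here.

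The large and small subunits had nearly the same median change in every comparison, while the ratio of their summed counts was lower in Combo. The ratio of large to small subunit counts was 1.74 ± 0.00880 in DMSO, 1.73 ± 0.00733 in iDOT1L, 1.73 ± 0.0127 in iEZH2 and 1.71 ± 0.0227 in Combo (SD, n = 4). Over the single libraries it ran from 1.68 in Combo replicate 1 to 1.75 in DMSO replicate 1. All 4 Combo ratios lay below all 4 DMSO ratios, narrowly for Combo replicate 2 (1.729) against DMSO replicate 4 (1.732). The median log2 fold change against DMSO was 0.11 for both subunits in iDOT1L, 0.09 for both in iEZH2, and 0.28 for the large against 0.29 for the small subunit in Combo. The median over all tested genes was 0.01, 0.02 and 0.03 in the same comparisons. In single libraries the family median had a pooled within-group SD of 0.15, which is larger than the iDOT1L and iEZH2 medians. Within Combo alone this SD was 0.24. The large minus the small subunit median was -0.0021 in iDOT1L, -0.0042 in iEZH2 and -0.0030 in Combo, each smaller than the within-group SD of 0.018 for that difference in single libraries. Without Combo replicate 1 the Combo value was 0.0155.

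**Figure D2:**
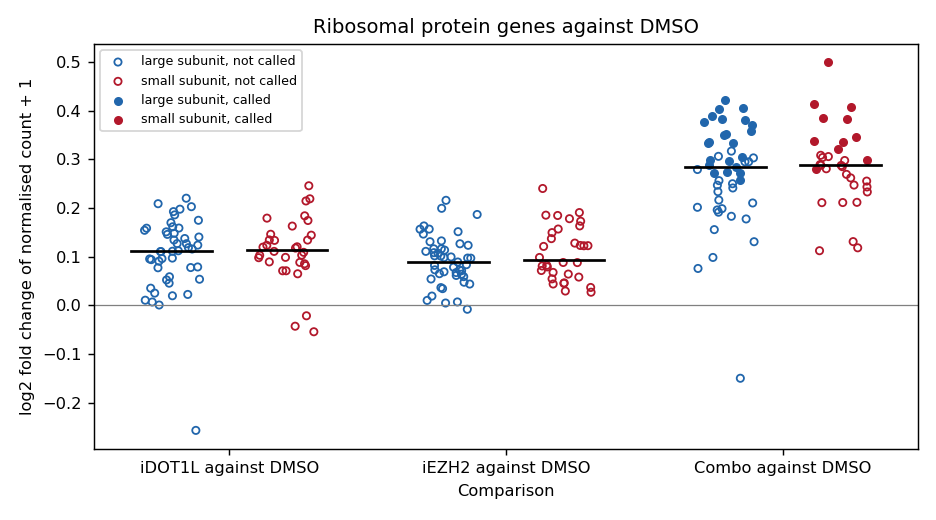
Log2 fold change of normalised count + 1 against DMSO for members with a mean of at least 50 normalised counts (RPL10L and RPL3L are not drawn), by comparison and subunit, with a line at the median of all members of the subunit. Filled points passed the adjusted p threshold of 0.05, which only Combo members did, and the points of both subunits overlap widely. RPL39L lies lowest in iDOT1L (-0.26) and Combo (-0.15), and RPS28 highest in Combo (0.50).

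With both inhibitors 34 of the 81 members rose against DMSO and none fell (limma, Benjamini-Hochberg adjusted p under 0.05 over all 22331 tested genes). Of all tested genes 7.22% were called higher in this comparison and 8.8% lower. The 34 were 23 of 49 large and 11 of 32 small subunit members, and whether these shares differ was not tested. The rises were between 0.26 and 0.50 on the log2 scale, or 1.20-fold to 1.41-fold. For 27 of the 81 members all Combo libraries lay above all DMSO libraries, a pattern seen in 9.62% of all tested genes.

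RPSA, the small subunit protein also described as a laminin receptor, had the lowest adjusted p. Its normalised counts were 35323, 34336, 35640 and 35961 in DMSO and 54645, 39750, 45893 and 48392 in Combo. The groups did not overlap, and the log2 fold change was 0.41 ± 0.084 (SE, adjusted p = 0.0021, limma). In iDOT1L it measured 41535, 38162, 40592 and 43799, and in iEZH2 39501, 37413, 39949 and 43942. All 8 libraries with 1 inhibitor were thus above the highest DMSO library.

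RPS2, a protein near the entry of the mRNA channel, read 84099, 80028, 78782 and 80262 in DMSO and 132329, 89128, 105015 and 107929 in Combo. It rose by 0.41 ± 0.095 (log2, SE, limma adjusted p = 0.0051). RPS4X, an X-linked small subunit protein, went from 25744, 24142, 26195 and 25852 to 38582, 28589, 33195 and 33478. Its log2 fold change was 0.39 ± 0.089 (adjusted p = 0.0052, limma), and again the lowest Combo library, replicate 2, was above the highest DMSO library.

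RPL7, RPL17 and RPL27A led the large subunit. RPL7 counted 75684, 70696, 74834 and 74757 in DMSO against 110535, 83129, 94252 and 98383 in Combo, a log2 rise of 0.38 ± 0.083 (adjusted p = 0.0036, limma). RPL17, which lies at the exit of the peptide tunnel, counted 27876, 25039, 27242 and 26469 against 42520, 29816, 33740 and 36021, a rise of 0.40 ± 0.093 (adjusted p = 0.0053). Neither gene's groups overlapped. Both share most of their sequence with other transcripts, as given above for RPL7 and the RPL17 read-through, so the counts of these genes may hold reads of those transcripts. RPL27A rose by 0.42 ± 0.10 (adjusted p = 0.0086), with 37372, 36179, 36606 and 38904 in DMSO and 63221, 40529, 48231 and 50061 in Combo.

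The largest rise was that of RPS28, a small subunit protein at the mRNA exit. Its counts were 17221, 15713, 17282 and 17766 in DMSO and 32047, 18213, 23582 and 24090 in Combo, a log2 fold change of 0.50 ± 0.13 (adjusted p = 0.0095, limma). Its pseudogene row RPS28P7 rose by 0.46 ± 0.11 (adjusted p = 0.0085). RPL37A, a small zinc-binding protein, came after RPL27A in the large subunit at 0.41 ± 0.13 (adjusted p = 0.032), but its lowest Combo library (22205) lay below its highest DMSO library (22943).

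Other members called higher in the large subunit included RPL3, RPL6, RPL7A, RPL8, RPL10, RPL13A, RPL14, RPL18, RPL21, RPL23, RPL26, RPL28, RPL31, RPL35, RPL36, RPL36A, RPL41 and RPLP0. In the small subunit RPS3, RPS6, RPS15, RPS16 and RPS19 were among them. RPL3, which reaches the peptidyl transferase centre, and RPS6, a phosphorylation target of the mTOR pathway, thus both rose. RPS3, at the entry of the mRNA channel, read 54435, 49692, 50561 and 50896 in DMSO and 78232, 55932, 62079 and 65463 in Combo (0.34 ± 0.088, adjusted p = 0.012). RPL36, a large subunit surface protein, read 16505, 15537, 15280 and 16039 against 27227, 17186, 19574 and 20123 (0.39 ± 0.10, adjusted p = 0.014). In both genes replicate 2 was the lowest Combo library and still lay above all DMSO libraries. Among members not called, RPL4 (0.08 ± 0.081), RPL29 (0.10 ± 0.094), RPS29 (0.11 ± 0.11) and RPS9 (0.12 ± 0.13) had the smallest positive values. RPL4 read 84159, 75962, 82288 and 80328 in DMSO and 98714, 74600, 83112 and 85223 in Combo, so that Combo replicates 1 and 4 lay above the highest DMSO library and replicate 2 below the lowest. Centring each library on its median gene turned RPL4 to -0.0095, and leaving out Combo replicate 1 turned RPS29 to -0.0208.

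How many members were called in Combo depended on which libraries entered. The count was 11 without Combo replicate 1, 69 without Combo replicate 2, 21 without Combo replicate 3 and 14 without Combo replicate 4. It was 20, 16, 17 and 15 without DMSO replicates 1, 2, 3 and 4, the 16 including RPL10L as lower. In all 8 of these fits 11 members, listed after their values were seen, were called: RPSA, RPS2, RPS3, RPS4X, RPS19, RPS28, RPL6, RPL7, RPL17, RPL27A and RPL36. Leaving out 1 replicate number from all 4 groups gave 10, 64, 1 and 3 calls for numbers 1 to 4. The median rise ran from 0.19 without Combo replicate 1 to 0.38 without Combo replicate 2.

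**Figure D3:**
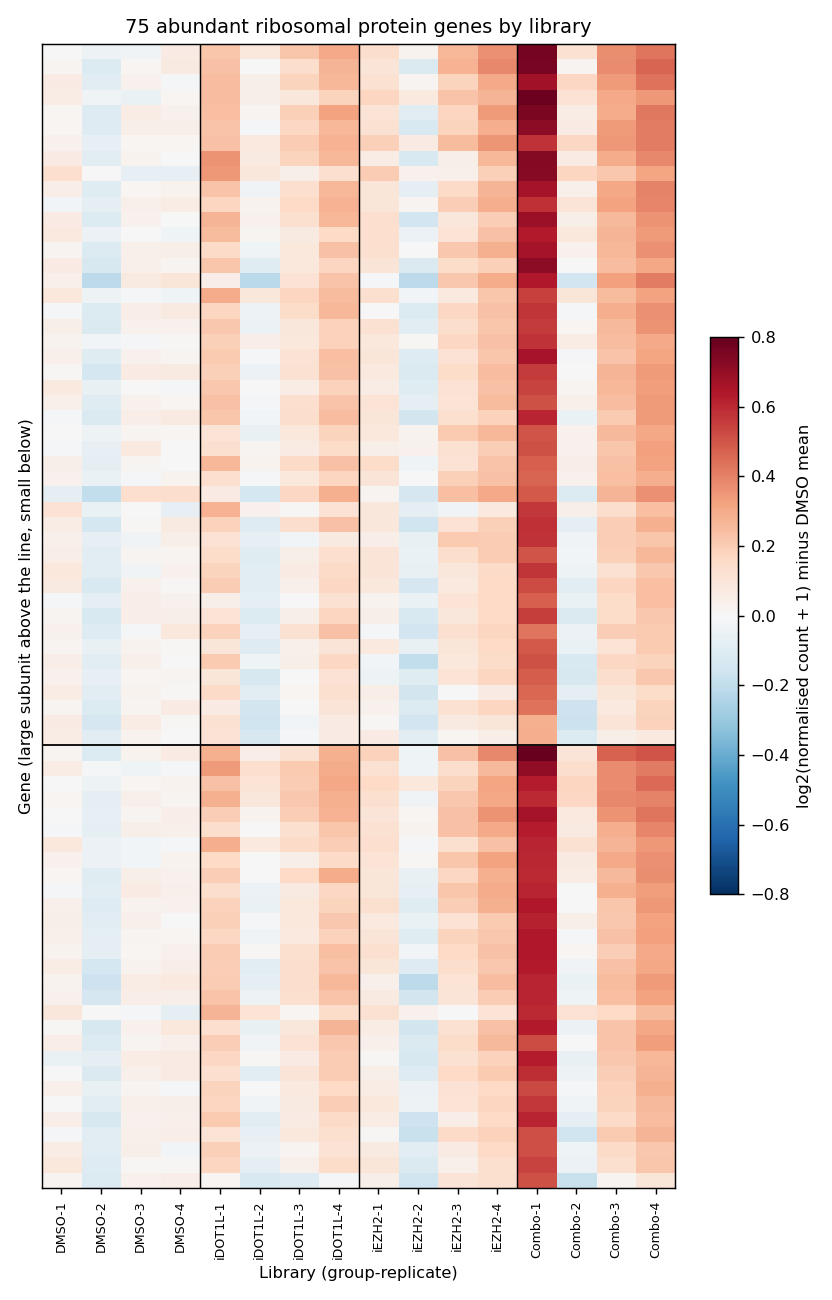
Log2(normalised count + 1) minus the DMSO mean for the 75 members with a mean of at least 10000 normalised counts (rows, ordered within each subunit by the fold change in Combo) in the 16 libraries (columns, labelled by group and replicate). Columns are nearly uniform from top to bottom, with Combo replicate 1 darkest and replicate 2 palest or bluest in every group, and rows differ little from each other.

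The members tracked each other closely from library to library. After removal of the group means, the log2 values of the 75 abundant members correlated with the median of the other members at a median Pearson r of 0.98 over 16 libraries, which share depth and scaling. RPS15 had the lowest value, 0.75, and 73 of the 75 were above 0.8. For all 75 the fold change against DMSO was positive in Combo and larger in Combo than with either inhibitor alone. These 3 comparisons share the same DMSO libraries. Because the members moved together, neither these 75 nor the members called in Combo are independent observations.

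With the DOT1L inhibitor alone none of the 81 members was called in the fit without pairing, while 5 had an unadjusted p under 0.05, all higher. At the adjusted threshold 3.08% of all tested genes were called higher and 3.17% lower. The share of all genes with an unadjusted p under 0.05 is not given, so the count of 5 has no background here. Residuals of same-numbered libraries of iDOT1L and DMSO correlated at 0.109 to 0.5. The 0.109 was that of number 3, where another iDOT1L library matched DMSO replicate 3 better. With the replicate number as a block 7 members rose: RPLP0, RPL3, RPL7, RPSA, RPS2, RPS3 and RPS4X. Their log2 fold changes lay between 0.17 and 0.25, and in that fit 5.69% of all tested genes were called higher. With the block and the length and GC correction together only RPS2 of these 7 was called (0.22, limma adjusted p = 0.045). There 4.95% of all tested genes were called higher. For 8 members the groups did not overlap, a pattern that 6.05% of all tested genes showed in this direction.

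RPLP0 had the lowest adjusted p of these 7. It read 106656, 97638, 99416 and 98246 in DMSO and 123346, 106974, 112955 and 119745 in iDOT1L, so that the groups did not overlap. Its log2 fold change was 0.20 with an adjusted p of 0.20 without the block and 0.016 with it (limma). RPS2 showed the largest value, 0.25, with 102471, 88792, 93334 and 99063 in iDOT1L (adjusted p = 0.16 without and 0.018 with the block). RPL28, at 0.22, and RPL27A, at 0.21, also had groups that did not overlap but passed neither fit (limma adjusted p = 0.061 and 0.098 with the block).

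At the lower end in iDOT1L were RPL39L (-0.26), RPS29 (-0.05), RPS27L (-0.04) and RPS26 (-0.02), none of which passed the test, and RPL29 (0.00) and RPL35A (0.01). RPS26 read 2976, 3885, 3375 and 3509 in DMSO and 2792, 3787, 3499 and 3488 in iDOT1L, so that the groups overlapped and replicate 1 was the lowest in both. RPS27L and RPS26 changed sign when iDOT1L replicate 1 was left out, RPS27L also without DMSO replicate 4 and RPS26 without DMSO replicate 2. RPL29 and RPL35A did so when iDOT1L replicate 1 or 4 or DMSO replicate 2 was left out.

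With the EZH2 inhibitor alone no member was called without the block, and 2 had an unadjusted p under 0.05, RPL7 and RPSA. At the adjusted threshold, a stricter cut than the unadjusted one, 1.3% of all tested genes were called higher and 2.05% lower. With the replicate block RPL7 alone rose, by 0.22 (limma adjusted p = 0.19 without and 0.013 with the block), where 3.87% of all tested genes were called higher. No member was called in iEZH2 with the block and the length and GC correction together. RPL7 counted 84525, 77348, 88050 and 94613 in iEZH2, each above the highest DMSO library. RPSA, at 0.18, missed the threshold (adjusted p = 0.054 with the block). The groups did not overlap for 4 members, against 3.67% of all tested genes.

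Large values in iEZH2 that did not pass were those of RPS26 (0.24), RPL27A (0.20), RPS28 (0.19), RPL36 (0.19) and RPS9 (0.19). The 3 lowest large subunit members were RPL15 (-0.01), RPLP1 (0.00) and RPL29 (0.01), and the 3 lowest of the small subunit RPS15A (0.03), RPS29 (0.03) and RPS3A (0.04), leaving out RPL10L and RPL3L.

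Without the block, no member was called when Combo was set against either inhibitor, when the inhibitors were set against each other, or in the interaction (limma). With the replicate block 12 members were called higher in Combo than in iDOT1L and 26 higher than in iEZH2, where 3.78% and 4.33% of all tested genes were called higher. With the length and GC correction added these counts fell to 1 and 3, where 2.98% and 3.82% of all tested genes were called higher. Same-numbered libraries did not all correlate above 0.1 where Combo enters, so this block rests on a shared number only. The family's share was higher in Combo than in the iDOT1L and iEZH2 libraries of the same number for all 4 numbers. The median log2 difference was 0.17 for Combo against iDOT1L and 0.19 for Combo against iEZH2, and 15 and 21 members had an unadjusted p under 0.05, all higher. At the stricter adjusted threshold 2.58% and 3.81% of all tested genes were called in these comparisons, and 6.94% between the inhibitors. Between the inhibitors 2 members had an unadjusted p under 0.05, both lower in iDOT1L. Shares of all genes at the unadjusted cut are not given. The interaction, Combo minus iDOT1L minus iEZH2 plus DMSO, had a median of 0.08 over the members, 0 members with an unadjusted p under 0.05, and 0% of all tested genes called. A departure of the Combo values from the sum of both single treatments was thus not detectable, and the median SE of a member's interaction was 0.14.

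Some members are known for a particular role. The stalk proteins RPLP1 and RPLP2, which bind elongation factors as dimers on RPLP0, had Combo log2 fold changes of 0.18 ± 0.11 and 0.18 ± 0.10 and were not called, while RPLP0 rose by 0.31 ± 0.085 (limma adjusted p = 0.019). RPLP1 read 38954, 35375, 38605 and 37424 in DMSO and 53452, 34562, 42218 and 42408 in Combo, so its groups overlapped through replicate 2. RPL5 and RPL11, which form a particle with an additional ribosomal RNA and can bind MDM2, the inhibitor of p53, had 0.23 ± 0.094 and 0.26 ± 0.13, neither called. RPL11 varied more within groups than RPL5, from 25357 to 32038 in DMSO.

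RPS19, the gene most often mutated in Diamond-Blackfan anaemia, rose by 0.38 ± 0.10 in Combo (limma adjusted p = 0.014), from 20657, 19782, 21043 and 21520 in DMSO to 32861, 21891, 26651 and 27851. RPS14, whose loss underlies the anaemia of a deletion form of myelodysplastic syndrome, had 0.28 ± 0.12 and was not called (adjusted p = 0.11). Its Combo counts were 44576, 27769, 33673 and 35683 against 28926, 26303, 29416 and 30516 in DMSO.

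The variant members can be set beside their partners. RPL39L read 168, 219, 189 and 204 in DMSO and 211, 131, 186 and 181 in Combo, a log2 difference of -0.15 ± 0.16, where RPL39 had 0.25 ± 0.12. RPS27L, a target of p53, read 1240, 1254, 1364 and 1447 in DMSO and 1646, 1267, 1444 and 1466 in Combo (0.13 ± 0.10), where RPS27 had 0.29 ± 0.12. Neither variant nor partner was called, and the differences between them were not tested. RPL3L lay between 3.21 and 29.6 counts in all libraries and RPL10L between 0.982 and 12.4, too low for a comparison, whereas RPL3 (0.27 ± 0.085, adjusted p = 0.035) and RPL10 (0.30 ± 0.10, adjusted p = 0.048) rose in Combo.

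RPL22 is a large subunit protein that is lost in some leukaemias, and RPL22L1 is its close relative. RPL22 had 0.20 ± 0.098 in Combo (limma adjusted p = 0.20). RPL22L1, which the symbol rule leaves out, read 735, 849, 770 and 718 in DMSO, 636, 877, 884 and 863 in iDOT1L, 1175, 1278, 1269 and 1278 in iEZH2 and 1539, 1307, 1505 and 1448 in Combo. All iEZH2 and Combo libraries were above all others, with log2 fold changes of 0.70 ± 0.10 in iEZH2 (adjusted p = 0.00075) and 0.92 ± 0.10 in Combo (adjusted p = 5.1e-06). It was also called higher in Combo than in iDOT1L, by 0.84 ± 0.10 (adjusted p = 0.0004). The difference in response between RPL22L1 and RPL22 was not tested.

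FAU, which encodes a fusion of a ubiquitin-like protein with a small subunit protein, rose by 0.36 ± 0.099 in Combo (limma adjusted p = 0.017). RACK1, a scaffold on the small subunit, had 0.17 ± 0.10 and was not called. RPL26L1, RPL36AL and RPL7L1 had 0.20, -0.15 and -0.13 and were not called either. Of the 7 relatives 2 were thus called higher in Combo, 1 in iEZH2 and 0 in iDOT1L. Of all tested genes 7.22%, 1.3% and 3.08% were called higher in these comparisons.

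Of all tested genes 7.22% were called higher in Combo and 8.8% lower. Of 20 translation factors and further TOP mRNAs 3 rose in Combo and none fell, with a median of 0.15. These were EEF1D, a subunit of the elongation factor exchange complex, at 0.53 ± 0.094 (limma adjusted p = 0.00056), COX7C, a respiratory chain subunit with a TOP mRNA, at 0.41 ± 0.091 (adjusted p = 0.0036), and HNRNPA1, an RNA-binding protein, at 0.27 ± 0.081 (adjusted p = 0.027). EEF1A1, the elongation factor that delivers tRNA, had 0.15 ± 0.083 and EEF2, the translocation factor, -0.09 ± 0.075. With the replicate block 4 of the 20 rose in iDOT1L and 3 in iEZH2, where none was called without it. In that fit 5.69% and 3.87% of all tested genes were called higher.

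Among 12 genes known to control ribosomal protein mRNAs 1 rose and 1 fell in Combo, with a median of 0.00. Of all tested genes 7.22% were called higher and 8.8% lower, so these counts lie near that background. MTOR, the kinase upstream of TOP translation, rose by 0.54 ± 0.14 (limma adjusted p = 0.014). RPTOR, its partner in the complex mTORC1, fell by 0.57 (SE 0.14, adjusted p = 0.0084). LARP1, which binds the TOP tract, had -0.20 ± 0.18 and MYC 0.16 ± 0.11, neither called. In iDOT1L and iEZH2 none of the 12 was called without the block.

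Mitochondrial ribosomal protein genes build the separate ribosome of the organelle. Of 78 tested 2 rose and 4 fell in Combo with a median of 0.06. In iDOT1L none rose and 3 fell with a median of -0.08. Of all tested genes 7.22% were called higher and 8.8% lower in Combo, and 3.08% and 3.17% in iDOT1L. Of 413 tested ribosomal protein pseudogenes 10 rose and 4 fell in Combo with a median of 0.19. Among the 204 other genes with a mean of at least 10000 normalised counts 25 rose and 42 fell in Combo, with a median of 0.00, beside 34 and 0 of the 81 members.

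**Figure D4:**
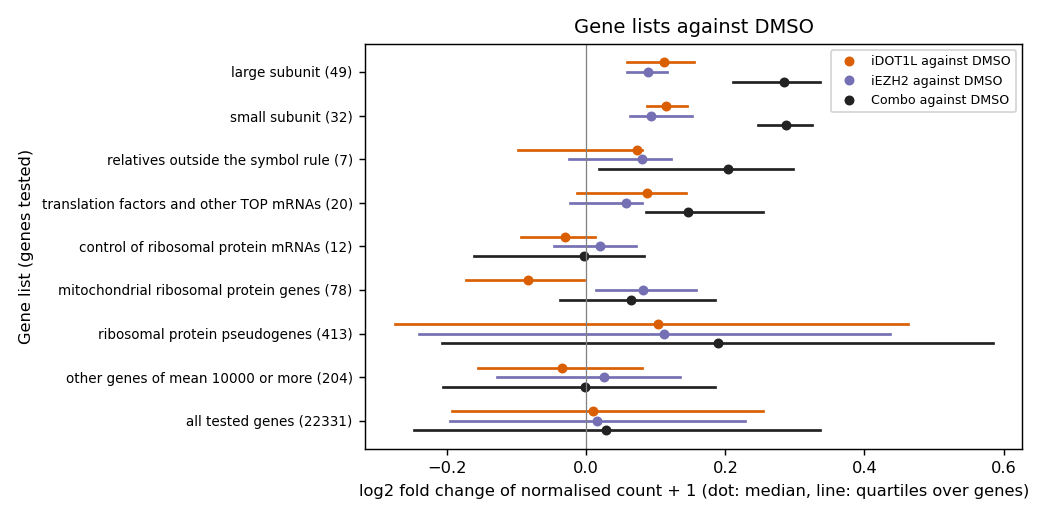
Median (dot) and quartiles over genes (line) of the log2 fold change against DMSO for the 2 subunits, related gene lists, other abundant genes and all tested genes, in 3 comparisons that share the DMSO libraries. In Combo both subunit medians lie near 0.29, above those of all other lists drawn.

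Among the abundant members, transcript length, GC content, mean count and shared sequence showed weak or no relation to the Combo values. Across the 75 abundant members, whose values come from the same libraries, Spearman's rho between the Combo fold change and transcript length was 0.16, GC content -0.02, mean count 0.20 and the share of bases in common with other genes 0.03. Reference transcripts of all members had a median of 650 bases, against 1569 for all tested protein-coding genes. A relation within the family thus does not show what part length has in its rise, which was not tested. With the length and GC correction 23 members were called higher in Combo instead of 34, where 5.79% of all tested genes were called higher. The Combo median was 0.28 for members with a C and at least 4 more C or T at a start (46 genes, 21 called). It was 0.28 for those without (18 genes, 6 called) and 0.30 for those with no promoter entry (17 genes, 7 called). Members without such a start can still hold a C/T run close by, 16 bases long in RPL17 and RPL27. This split thus does not cleanly separate members with a tract from members without one, and no conclusion on the tract is drawn.

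Normalised totals were 22.4 to 24.1 M per library, and steps in the low values gave an estimated 20.7 to 27.2 M reads. In all 120 pairs, libraries correlated over genes at a Pearson r between 0.982 and 0.996. All 8 myeloid markers were present, and their summed level was 31913 to 41692 normalised counts in DMSO, 40589 to 51366 in iDOT1L, 23666 to 32470 in iEZH2 and 36834 to 43827 in Combo. Between DMSO and Combo 2 of the 8 were higher and 2 lower without overlap. The monocyte enzyme LYZ went from 2225 to 2640 in DMSO to 11726 to 21832 in Combo, and the receptor FLT3 from 8234 to 10901 down to 3240 to 3988. The receptor CSF1R was also higher (287 to 536 in DMSO, 571 to 761 in Combo). The integrin subunit ITGB2 was lower (10440 to 14423 in DMSO, 7658 to 9346 in Combo). The 3 fibroblast markers summed to 72.9 to 139 in DMSO, 124 to 249 in iDOT1L, 99.6 to 280 in iEZH2 and 249 to 307 in Combo. Of these, COL1A1 (45.1 to 105 in DMSO, 170 to 235 in Combo) and DCN (5.40 to 8.23 in DMSO, 31.5 to 54.7 in Combo) were higher without overlap. COL1A2 overlapped (15.6 to 42.3 in DMSO, 9.71 to 41.2 in Combo). Measured markers of T, red and epithelial cells did not exceed 31.3 in any library and B cell markers 85.9. LYZ, CSF1R, COL1A1 and DCN were thus higher and FLT3 and ITGB2 lower in Combo, where the ribosomal protein genes rose. The other myeloid and fibroblast markers overlapped between DMSO and Combo. The part of any marker in the rise was not tested.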

How the data were processed

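Paired-end RNA-seq libraries of Molm14 cells (16, 4 per group) with 150-base reads were made per the labels' protocols. The extraction protocol speaks of RNA taken after a sort, at a time that conflicts with the 7-day treatment in the series' design text. The design text was followed. The submitters' processing notes name kallisto, DESeq2 and hg38. Versions and the annotation were not given in the sources used here. Deposited by the authors was 1 table of log2 values for 22445 Ensembl gene IDs. Judged by its values, the deposited table had been scaled between libraries and variance-stabilised, and the lowest value, 6.28106 in every library, was taken to stand for a count of 0.

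Normalised counts were computed by inverting that transformation. Of the IDs 20784 matched GENCODE 29 and 1661 did not. Whole reads could not be recovered (65.1% to 67.8% of low values lay within 0.1 read of a whole number), so no count test was run. Genes above 1 normalised count in at least 4 libraries were tested (22331). Limma 3.58.1 (R 4.3.3; trend, robust) was fitted to log2(normalised count + 1) with 4 group means and no block (12 residual degrees of freedom). Calls were made at a Benjamini-Hochberg adjusted p under 0.05 over all tested genes. Fold changes on this scale understate changes of low genes. The method was tested on simulated data in which genes varied independently of each other. That test thus does not cover shifts shared by many genes of a library, as seen in this family.

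Residuals of same-numbered libraries correlated above 0.1 in every pair of DMSO with iDOT1L (lowest 0.109), of DMSO with iEZH2 (lowest 0.198) and of both inhibitors (lowest 0.113), but not with Combo (lowest 0.036). The blocked value is therefore given beside results without Combo. For number 3 the same-numbered library was not the best match in any pair of groups. What the number marks is not in the labels.

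The members and lists were chosen with earlier results of these data known, the lists from textbook knowledge. Named members were those called against DMSO or in the interaction by either fit (the 6 of lowest adjusted p where more than 12), the 3 highest and 3 lowest per subunit and comparison with a mean of at least 50, variants with partners, stalk and clinically known members, and the extremes per length. Alternatives were other pseudocounts, filters and scalings, a length and GC correction, the block, and left-out libraries. Single-gene values of a few genes are not reported here.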

Additional observations from a re-analysis of the deposited data

Results flagged for a closer look

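Within the 4 libraries of a group, 36 named members and 2 family measures were screened with Dixon's ratio for a library far from the other 3. Chance gives about 1 such case in 20, and 7 of 152 screened groups had one. In DMSO, replicate 2 stood apart below the others in the family's share of the library (10.5%), in RPL10 (37476 normalised counts) and in RPS15A (20811), and above them in RPL3L (22.7). In iEZH2, replicate 1 was low in RPS27L (1263). In Combo, RPS26 was low in replicate 2 (3819) and RPL10L high in replicate 3 (4.49), at a level of a few counts.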

How the results depend on the processing

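The count of members called in Combo against DMSO was 34 (7.22% of all genes called higher). It was 11 with centring on the median gene (4.65% of all genes called higher) and 22 with only the compared groups in the fit. With the replicate block it was 69 (11.3%). Division by the total of all other genes gave 54 (9.73%), and with the block 75 (15.1%). Both of these divisions and the leaving out of 1 replicate number from all groups were chosen after seeing the data. The other alternatives gave 23 (length and GC correction, 5.79% of all genes called higher) to 46. The 46 came with division by the library total (7.83%) and with the block with length and GC correction (8.8%). The 34 remained called with TMM, the library total, the other-gene total and the block. Leaving out 1 library gave 11 to 69, and leaving out replicate number 1, 2, 3 or 4 from all groups 10, 64, 1 and 3. In iDOT1L 0 became 7 with the block (5.69% of all genes called higher). It became 1 with the block and the length and GC correction (4.95%), and 16 with the other-gene total and the block (6.98%). With only the compared groups it was 1. In iEZH2 0 became 1 with the block (3.87%) and 9 with the other-gene total and the block (5.44%). Combo against iDOT1L went from 0 to 12 with the block (3.78% of all genes called higher), 1 with the block and correction (2.98%), 35 with the other-gene total and the block (5.12%), and 1 without replicate number 2, and Combo against iEZH2 to 26 (4.33%), 3 (3.82%), 48 (5.15%) and 1. Leaving out 1 library gave 0 to 2, 0 to 5 and, for iDOT1L against iEZH2, 0 to 1. Where Combo enters, same-numbered libraries did not all correlate above 0.1, so the block there rests on a shared number only. The cause of these shifts was not tested.

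The large minus small subunit median in Combo ran from -0.0164 to 0.0155 with 1 library left out and was -0.0225 without replicate number 4. All other family medians and subunit differences moved by less than 1 SD.

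Some uncalled members near 0 changed sign. Centring gave RPL29 -0.0605 and RPL35A -0.0544 in iDOT1L, RPLP1 -0.0104 and RPL29 -0.0082 in iEZH2, and RPL4 -0.0095 in Combo. The length and GC correction, with or without the replicate block, gave RPL29 -0.0241 and RPL35A -0.0556 in iDOT1L, and RPS3A -0.0365 and RPS29 -0.0001 in iEZH2. RPL15 in iEZH2 became 0.0074 with TMM, 0.0127 with the library total and 0.0290 with the other-gene total, which took RPS26 in iDOT1L to 0.0197. With 1 library left out, ranges that cross 0 were, in iDOT1L, -0.0448 to 0.0553 for RPL29, -0.0287 to 0.0578 for RPL35A, -0.0882 to 0.0693 for RPS26 and -0.1007 to 0.0205 for RPS27L. In iEZH2 they were -0.0390 to 0.0394 for RPL15, -0.0433 to 0.0721 for RPLP1, -0.0386 to 0.0601 for RPL29, -0.0164 to 0.0905 for RPS15A and -0.0078 to 0.0916 for RPS29, and in Combo -0.0208 to 0.2095 for RPS29. Without replicate number 1, iDOT1L gave RPL29 -0.0170, RPL35A -0.0058 and RPS26 0.0023, and Combo RPS29 -0.0140. Without number 2, RPL15 in iEZH2 was 0.0083 and RPL39L in Combo 0.0447. Without number 3, RPLP1 in iEZH2 was -0.0093. Without number 4, RPL29 was -0.0170 and RPL35A -0.0038 in iDOT1L, and RPS15A -0.0033, RPLP1 -0.0451 and RPL29 -0.0196 in iEZH2.

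Low counts limit RPL10L and RPL3L, and shared sequence limits the single-gene values of members with many pseudogenes.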
